A study of Mus musculus with 22 samples.

Results

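The 4 IL-10 family cytokine genes Il10, Il19, Il20 and Il24, which lie beside the MK2 gene Mapkapk2 on mouse chromosome 1, and the genes of both IL-10 receptor chains, Il10ra and Il10rb, were followed in bone marrow-derived macrophages (BMDM). The 6 genes were chosen by name, and every probe whose RefSeq accession belongs to them was used, which gave 7 of the 55681 probes of the array. Of these 7 probes, 6 were among the 28105 that had an NCBI accession, were well above background on at least 3 arrays and were tested, and the Il20 probe was not. LPS raised Il10 and Il19 strongly in all 3 genotypes, and after LPS both were lower in MK2/3-/- than in wt BMDM, by 4.99-fold for Il10 and by 4.66-fold for Il19. In LPS-treated MK2/3-/- BMDM, Il24 and Il10ra were higher than in wt, by 1.90-fold and 1.63-fold. The Il19 value is that of the first of its probes, and the second was not called. No member probe was called for a different LPS response between genotypes, and each genotype was on a slide of its own.

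BMDM are macrophages grown in culture from bone marrow, here with the growth factor M-CSF over 9 days. They came from C57BL/6 mice (C57BL/6J in the study's methods) labelled as male and 10 to 14 weeks old that were wild-type (wt), lacked the kinase MK2 (MK2-/-) or lacked both MK2 and the related kinase MK3 (MK2/3-/-), with each deletion present in every cell of the animal. By the labels, wt mice were 12 to 13, MK2-/- mice 10 to 13 and MK2/3-/- mice 11 to 14 weeks old. The cells stayed for 360 min in medium or with 100 ng/ml of lipopolysaccharide (LPS), an outer membrane component of Gram-negative bacteria that is sensed by Toll-like receptor 4. There were 3 wt LPS, 4 wt medium, 4 MK2-/- LPS, 4 MK2-/- medium, 4 MK2/3-/- LPS and 3 MK2/3-/- medium arrays, each hybridised with the RNA of 1 sample. The study's methods name independent experiments for each time point, but the labels do not name the animal of an array, and p-values measure the spread between these arrays. Each array also carries a letter (a, b, c or e). Within a genotype, LPS and medium arrays of the same letter had the same labelled age in all 10 pairs. Such pairs may share an animal or culture, whereas the main fit treats all arrays as independent.

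IL-10 is the main cytokine by which macrophages limit their own inflammatory output. It binds IL-10Rα, the chain that is particular to IL-10, together with IL-10Rβ, which is shared with other cytokines of the family, and the kinases JAK1 and TYK2 then activate the transcription factor STAT3. IL-19, IL-20 and IL-24 use other receptor chains, found mainly on epithelial cells and keratinocytes. In macrophages the kinase p38 and its substrates MK2 and MK3 act on Il10 at the level of transcription and of mRNA stability.

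Promoter sequences were found for 2 of the 6 members in the RefSeq table of the build GRCm38.p6, and these show neighbouring members that behaved differently, since Il19 was among the strongly LPS-raised genes and Il20 stayed near background. Each run covers 250 bases before and 50 bases after the start of transcription on the minus strand, at chr1:130940066-130940365 for Il19 and chr1:130911247-130911546 for Il20, and capitals mark matches to the motifs that were searched.
Il19: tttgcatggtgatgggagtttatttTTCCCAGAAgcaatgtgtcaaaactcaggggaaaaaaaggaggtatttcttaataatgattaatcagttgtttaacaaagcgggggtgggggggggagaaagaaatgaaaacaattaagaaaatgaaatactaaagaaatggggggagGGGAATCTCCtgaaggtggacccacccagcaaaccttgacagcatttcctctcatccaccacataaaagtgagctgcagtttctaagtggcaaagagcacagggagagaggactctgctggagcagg
Il20: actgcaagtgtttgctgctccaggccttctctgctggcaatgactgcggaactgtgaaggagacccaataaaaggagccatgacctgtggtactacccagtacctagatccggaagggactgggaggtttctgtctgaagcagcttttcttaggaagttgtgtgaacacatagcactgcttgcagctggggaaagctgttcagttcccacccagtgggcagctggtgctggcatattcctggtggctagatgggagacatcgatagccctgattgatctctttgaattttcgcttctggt

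Matches to 6 motifs were searched on both strands, of which NF-kB was taken by its consensus. The AP-1 motif was TGANTCA. The others were CRE (TGACGTCA), C/EBP (TTGCNNAA) and STAT (TTCNNNGAA). The TATA motif was TATAAA. The Il19 promoter held an NF-kB match, GGGAATCTCC, starting 77 bases before the start of transcription, and a STAT match, TTCCCAGAA, starting 225 bases before it. No other motif matched there, and none of the 6 matched in the Il20 window. Among 32851 RefSeq promoters of the same length, 4.51% held the NF-kB motif, 7.81% AP-1, 1.79% CRE, 10.8% C/EBP, 8.3% STAT and 13.6% TATA. The motifs do not overlap in the Il19 window, and a match is a description of the letters only. Il10, Il24, Il10ra and Il10rb are not in the table.

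The labels were checked against the data before the comparisons. All values below are log2 of the background-corrected signal after quantile normalisation over the 22 arrays. Mapkapk2 was at 14.89 in wt LPS, 11.61 in MK2-/- LPS and 11.02 in MK2/3-/- LPS BMDM, and Mapkapk3, the MK3 gene, was at 12.12, 12.35 and 8.0. In medium, Mapkapk2 was at 11.91, 8.88 and 8.44 and Mapkapk3 at 13.13, 12.90 and 11.16, so that the Mapkapk3 difference of MK2/3-/- from wt BMDM was -1.97 in medium and -4.11 after LPS. The median processed signal per array ranged from 32.7 to 107.8, and 61.7% to 83.0% of spots were well above background. Replicate 3 of MK2-/- LPS and replicate 3 of MK2-/- medium, labelled male, had the Y-linked gene Eif2s3y at 2.02 and 3.31 against 11.1 to 12.5 on the other 20 arrays. On the same arrays the Y-linked gene Ddx3y was at 1.99 and 2.01, and Xist was at 7.66 and 7.78 against at most 5.79 elsewhere. These values do not match the male label, so both MK2-/- groups may mix sexes. Both of these MK2-/- arrays carry the letter c. Replicate 4 of wt medium had the highest Il10 and Il19 signals of the untreated arrays. For member probes and for counts of the gene lists below, results that rest on these 3 arrays are given with and without them. Differences of single genes outside the members are given with these arrays included. All 7 macrophage markers on the array were well above background on all 22 arrays. Each genotype was on a slide of its own, so that genotype and slide cannot be told apart in direct comparisons of genotypes, whereas the arrays with and without LPS of any 1 genotype came from the same slide. All wt arrays were scanned on 1 day and all arrays of both knockouts on another. A difference that both knockouts share from wt therefore cannot be told apart from scan day.

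Il10 was measured by 10 spots of a single probe (NM_010548), and the SD between these spots had a median of 0.144 over arrays. In medium, its log2 signals were 7.05, 7.15, 7.68 and 8.40 in wt, 6.29, 6.48, 6.54 and 6.87 in MK2-/- and 6.30, 6.63 and 7.33 in MK2/3-/- BMDM. After LPS they were 13.51, 14.28 and 14.49 in wt, 11.59, 12.12, 12.74 and 13.71 in MK2-/- and 10.64, 11.76, 12.21 and 12.48 in MK2/3-/- BMDM. The group means after LPS were 14.09 ± 0.52 (SD, n = 3), 12.54 ± 0.91 (n = 4) and 11.77 ± 0.81 (n = 4). Every LPS array lay above every medium array, and the 3 genotypes fell in the order wt, MK2-/-, MK2/3-/- after LPS. The wt and MK2/3-/- ranges did not overlap, whereas the MK2-/- range overlapped both.

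**Figure D1:**
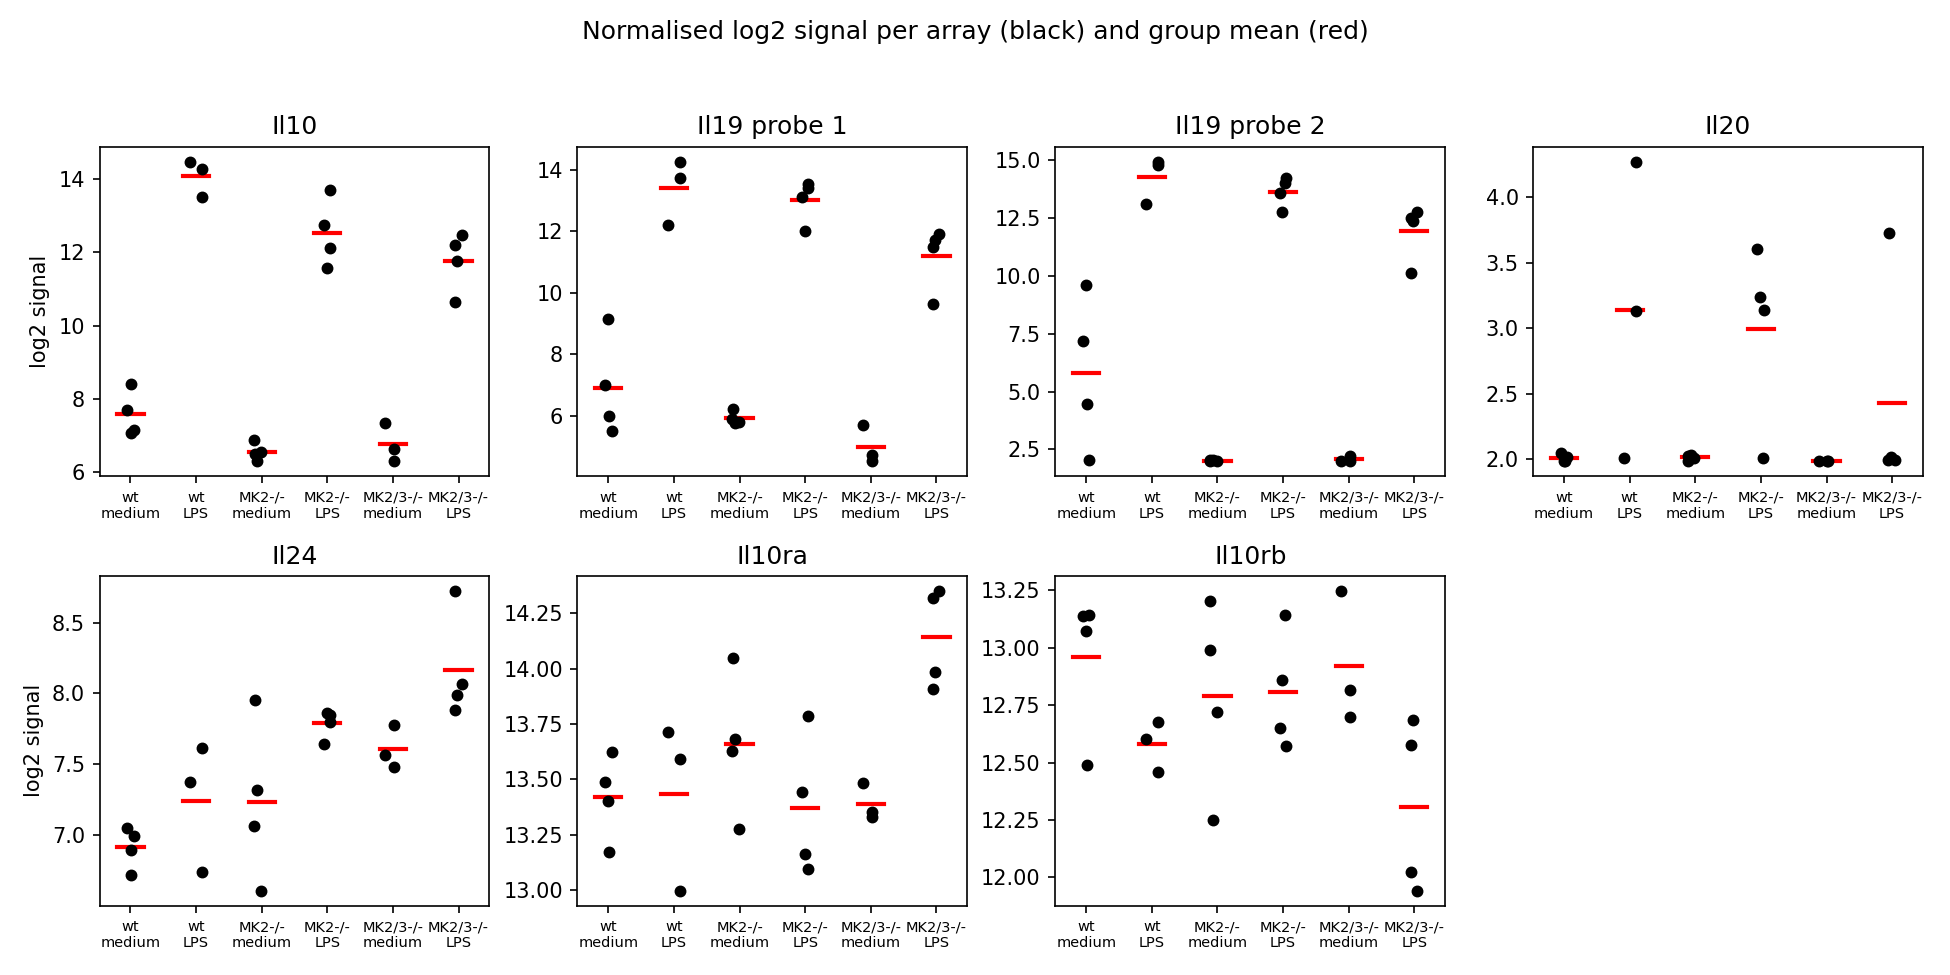
Log2 signal of the 7 member probes on each of the 22 arrays (y axis), by genotype and treatment (x axis), where each black point is 1 array and each red line a group mean. Il10 and both Il19 probes are high in LPS and low in medium, the Il20 probe lies between 1.99 and 4.27, Il24 between 6.61 and 8.72, Il10ra between 13.00 and 14.35, and Il10rb between 11.94 and 13.25.

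LPS raised Il10 by 91.7-fold in wt (log2 6.52 ± 0.48 SE, limma adjusted p = 4.62e-09), 63.9-fold in MK2-/- (6.00 ± 0.44, adjusted p = 2.00e-09) and 32.4-fold in MK2/3-/- BMDM (5.02 ± 0.48, adjusted p = 5.81e-08). The LPS calls of Il10 and of both Il19 probes held under all processing settings that were run. Of the 6 tested member probes, 3 were called in wt, 3 in MK2-/- and 5 in MK2/3-/- BMDM, where 42%, 45.4% and 48.6% of all tested probes were called. A share of 3 in 6 probes is near that background. For comparison with the size of the Il10 change, the median log2 change of all tested probes was -0.06 in wt, -0.04 in MK2-/- and -0.02 in MK2/3-/- BMDM.

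Compared to wt, LPS-treated MK2/3-/- BMDM had 4.99-fold less Il10 (log2 -2.32 ± 0.48 SE, adjusted p = 0.0021), and this was called in 22 of 22 fits that left out 1 array. MK2-/- BMDM had 2.93-fold less (-1.55 ± 0.48, adjusted p = 0.0424). This call lay close to the threshold. It was lost without replicate 2 (-1.46) or 3 (-1.35) of wt LPS, without replicate 1 (-1.23), 2 (-1.41) or 3 (-1.62) of MK2-/- LPS and, at an unchanged difference, without replicate 3 of wt medium, replicate 1 or 3 of MK2-/- medium or replicate 3 of MK2/3-/- medium, which left 13 of 22 fits with the call. Without both MK2-/- arrays of low Y-linked signal the difference was -1.62 (adjusted p = 0.0627). In LPS-treated MK2-/- BMDM the 4 arrays had the same order by Il10 and by the labelled age of the mice, from 11.59 at 10 weeks to 13.71 at 13 weeks, and with age as a covariate the difference was -1.22 (adjusted p = 0.0674). The additional loss of MK3 was accompanied by a difference of -0.77 between MK2/3-/- and MK2-/- BMDM that did not pass the test (adjusted p = 0.272, 95% confidence interval -1.69 to 0.16).

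Of the 6 member probes, MK2-/- and wt BMDM differed in 1 under LPS, beside 11.6% of all tested probes that were called. MK2/3-/- and wt BMDM differed in 4, beside 23.7% of all probes, and both knockouts differed from each other in 1, beside 13.4%. The 4 probes called for MK2/3-/- were Il10 and the first Il19 probe, which were lower, and Il24 and Il10ra, which were higher. In these bulk samples, fewer cells of a type and less RNA per cell cannot be told apart.

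Fibroblast markers (Col1a1, Col1a2, Col3a1 and Pdgfrb, 4 of 4 well above background on every array) had medians that were lower in the knockouts under LPS. The log2 of their summed signal had medians of 14.36 in wt, 12.15 in MK2-/- and 11.86 in MK2/3-/- BMDM. The ranges overlapped and the difference was not tested. This sum ranged from 13.51 to 15.90 in wt LPS, from 11.49 to 14.22 in MK2-/- LPS and from 10.40 to 14.88 in MK2/3-/- LPS BMDM. Within MK2/3-/- LPS the arrays had the same order by Il10 and by this sum, whereas the wt LPS array with the highest sum, 15.90, had the lowest Il10, 13.51. Within MK2-/- LPS the sums were 11.69, 11.49, 12.61 and 14.22 in the order of rising Il10, so that only the lowest arrays changed places. In each genotype, the pairs of same-lettered LPS and medium arrays had the same order by this sum under both treatments. For MK2/3-/- BMDM the LPS and medium sums were 10.40 and 9.35 (a), 10.65 and 10.54 (b) and 14.88 and 15.54 (e). The part of the fibroblast markers in the result was not tested. Neutrophil markers, of which 4 of the 6 on the array were well above background on every array, were also lower in both knockouts under LPS. The log2 of their median summed signal was 13.52 in wt, 12.37 in MK2-/- and 12.89 in MK2/3-/- BMDM. No other cell type checked had both knockout medians below wt, and none of these differences was tested.

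In medium, the log2 difference of Il10 between MK2-/- and wt BMDM was -1.03 and did not pass the test (adjusted p = 0.151), although the ranges did not overlap. The difference between MK2/3-/- and wt was -0.82 (adjusted p = 0.397), and that between MK2/3-/- and MK2-/- was 0.21 (adjusted p = 0.905). Without replicate 4 of wt medium, the Il10 differences from wt were -0.75 in MK2-/- and -0.54 in MK2/3-/-, and the wt response to LPS was 6.80 for Il10 and 7.24 for the first Il19 probe. Of the 6 member probes, 1 was called between MK2-/- and wt in medium, the second Il19 probe, and none in the other comparisons of untreated cells by limma, where 7.91%, 1.92% and 2.73% of all probes were called. At an unadjusted p below 0.05, 2, 3 and 0 of the 6 probes passed in these 3 comparisons.

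The interaction of genotype and treatment asks whether the LPS response itself differed, and an effect of slide that adds equally to all arrays of a genotype cancels in it. The log2 Il10 response of MK2/3-/- minus that of wt BMDM was -1.50, with a 95% confidence interval of -2.91 to -0.09, and was not called (adjusted p = 0.376). The corresponding values were -0.52 for MK2-/- against wt (adjusted p = 0.881) and -0.98 for MK2/3-/- against MK2-/- (adjusted p = 0.730). No member probe was called in an interaction by limma, where 0%, 0.978% and 0.0676% of all probes were called for MK2-/- against wt, MK2/3-/- against wt and MK2/3-/- against MK2-/-. At an unadjusted p below 0.05, 0, 2 and 1 of the 6 member probes passed, beside 2165, 3336 and 2463 of all 28105 probes.

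**Figure D2:**
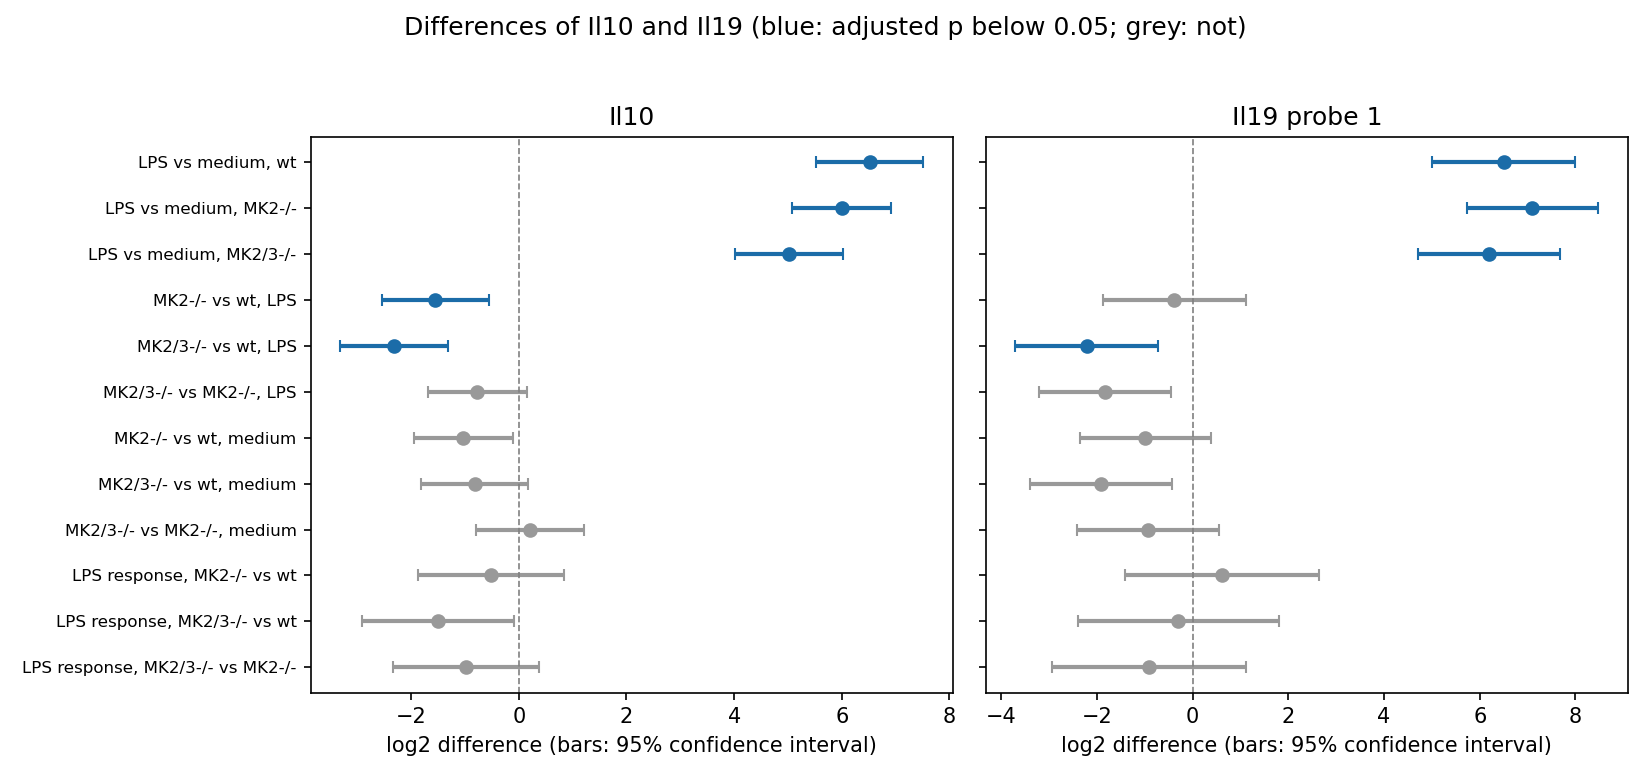
Log2 difference of Il10 (left) and of the first Il19 probe (right) in the 12 comparisons, with 95% confidence intervals as bars. Blue marks an adjusted p below 0.05, which both genes have for LPS against medium and for MK2/3-/- against wt under LPS, and only Il10 for MK2-/- against wt under LPS.

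Il19 encodes a cytokine of the IL-20 subfamily and was measured by a pair of probes with the same accession (NM_001009940). The first probe was at 5.99, 5.49, 6.99 and 9.13 in wt medium, 5.76, 6.20, 5.79 and 5.88 in MK2-/- medium and 4.73, 5.69 and 4.52 in MK2/3-/- medium. After LPS it reached 14.25, 13.74 and 12.19 in wt, 12.02, 13.39, 13.11 and 13.53 in MK2-/- and 9.62, 11.71, 11.47 and 11.91 in MK2/3-/- BMDM. All 4 LPS-treated MK2/3-/- arrays lay below all LPS arrays of both other genotypes, and the wt and MK2-/- arrays overlapped.

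LPS raised the first Il19 probe by 90.4-fold in wt (adjusted p = 6.56e-07), 137-fold in MK2-/- (adjusted p = 3.93e-08) and 73.3-fold in MK2/3-/- BMDM (adjusted p = 6.31e-07). After LPS it was 4.66-fold lower in MK2/3-/- than in wt BMDM (log2 -2.22 ± 0.71 SE, adjusted p = 0.0300). This call was lost when replicate 1 or 2 of wt LPS or replicate 1 of MK2/3-/- LPS was left out, with differences of -1.79, -2.05 and -1.70. The log2 difference of MK2/3-/- from MK2-/- BMDM, -1.84, missed the threshold (adjusted p = 0.0717) but passed it without replicate 4 of wt medium (adjusted p = 0.0279). Between MK2-/- and wt the difference was -0.39 (adjusted p = 0.755, 95% confidence interval -1.87 to 1.1).

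Thus Il10 and Il19 shared the lower level in MK2/3-/- BMDM, and the difference of MK2-/- from wt was -1.55 for Il10 and -0.39 for Il19. Whether the genotypes differ more in Il10 than in Il19 was not tested. In medium, the first Il19 probe gave log2 differences from wt of -0.99 for MK2-/- (adjusted p = 0.357) and of -1.92 for MK2/3-/- BMDM (adjusted p = 0.166), and MK2/3-/- differed from MK2-/- by -0.93 (adjusted p = 0.605). The interactions for this probe were 0.60 for MK2-/- minus wt (adjusted p = 0.912), -0.30 for MK2/3-/- minus wt (adjusted p = 0.964) and -0.91 for MK2/3-/- minus MK2-/- (adjusted p = 0.854).

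On none of the medium arrays of MK2-/- or MK2/3-/- BMDM did the second Il19 probe rise well above background, and on the wt medium arrays it did so on 3 of 4, with values of 4.46, 2.01, 7.19 and 9.59. After LPS it was at 14.95, 14.82 and 13.12 in wt, 12.76, 14.01, 13.60 and 14.22 in MK2-/- and 10.14, 12.40, 12.51 and 12.79 in MK2/3-/- BMDM. It therefore gave the same order of genotypes under LPS as the first probe. For a probe at background in medium, the fold was bounded by setting each dim array to the lowest signal that was well above background there.

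By that bound, LPS raised the second Il19 probe at least 1133-fold in MK2-/- and at least 458-fold in MK2/3-/- BMDM. The bounds themselves were not tested. The limma fit of the measured signals gave log2 differences of 11.63 in MK2-/- (adjusted p = 2.64e-08), 9.90 in MK2/3-/- (adjusted p = 5.89e-07) and 8.48 in wt (adjusted p = 6.80e-06). Under LPS the difference of MK2/3-/- from wt was -2.34, close to that of the first probe, but it was not called (adjusted p = 0.140). In medium the second probe was by the bound at least 4.97-fold lower in MK2-/- than in wt BMDM, and in MK2/3-/- at least 6.46-fold lower. The fit of the measured signals gave -3.80 (adjusted p = 0.0338) and -3.76 (adjusted p = 0.0889). The call in MK2-/- medium was lost without replicate 3 (adjusted p = 0.0886) or 4 (adjusted p = 0.0884) of wt medium, without any 1 of the 4 MK2-/- medium arrays (adjusted p between 0.0522 and 0.0848), and without both MK2-/- arrays of low Y-linked signal (adjusted p = 0.0672).

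**Figure D3:**
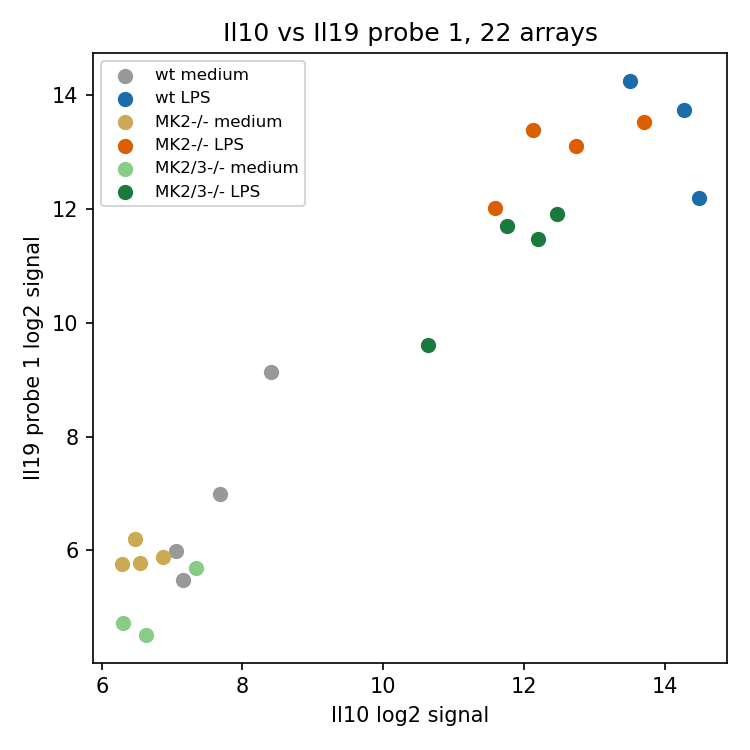
Log2 signal of Il10 (x axis) against that of the first Il19 probe (y axis) on the 22 arrays, coloured by group. Medium arrays lie at the lower left, with replicate 4 of wt medium at 8.40 and 9.13, and the LPS-treated MK2/3-/- arrays lie below those of wt on both axes.

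Il20 (NM_021380), a cytokine that acts mainly on epithelium, was well above background on 1 of 22 arrays, replicate 3 of MK2-/- LPS, at 3.60. Its signals ranged from 1.99 to 4.27 over all arrays, and no fold is given. The gene lies between Il24 and Il19 in the RefSeq order, so that a member at background stood beside a gene that LPS raised strongly.

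Il24 (NM_053095), known for effects on keratinocytes and on tumour cells, was well above background on all 22 arrays and ranged from 6.61 to 8.72. In LPS-treated cells it was at 6.74, 7.61 and 7.37 in wt, 7.86, 7.85, 7.64 and 7.80 in MK2-/- and 7.88, 7.99, 8.72 and 8.06 in MK2/3-/- BMDM. The 3 genotypes did not overlap after LPS, and their order was the opposite of that of Il10. How many of all probes separate in this way was not counted. Neither step was called by limma, at 0.55 for MK2-/- minus wt (adjusted p = 0.179) and 0.38 for MK2/3-/- minus MK2-/- (adjusted p = 0.345). MK2/3-/- exceeded wt BMDM by 1.90-fold (log2 0.92 ± 0.27 SE, adjusted p = 0.0179), which was not called without replicate 1 of wt LPS (0.67, adjusted p = 0.115) or without replicate 3 of MK2/3-/- LPS (0.74, adjusted p = 0.0515).

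In medium, the Il24 arrays read 6.72, 6.99, 7.05 and 6.89 in wt, 7.31, 7.95, 6.61 and 7.06 in MK2-/- and 7.78, 7.57 and 7.48 in MK2/3-/- BMDM, where MK2-/- overlapped both other genotypes and MK2/3-/- and wt did not overlap. Group means of Il24 in medium were 6.91 in wt, 7.23 in MK2-/- and 7.61 in MK2/3-/- BMDM, the same order as after LPS. The difference of MK2/3-/- from wt in medium was 0.70 (adjusted p = 0.182). The LPS difference of Il24 was 0.33 in wt (adjusted p = 0.351), 0.55 for MK2-/- (adjusted p = 0.0775) and 0.56 for MK2/3-/- BMDM (adjusted p = 0.0950), none of which was called. In the interactions the difference of MK2/3-/- from wt in the Il24 response was 0.23 (adjusted p = 0.911).

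Il10ra (NM_008348), which encodes the chain that binds IL-10, was at 13.00, 13.59 and 13.72 in wt LPS and 13.17, 13.62, 13.49 and 13.40 in wt medium. MK2-/- BMDM had 13.17, 13.10, 13.45 and 13.79 with LPS and 13.68, 14.05, 13.28 and 13.63 in medium. MK2/3-/- BMDM had 13.91, 13.99, 14.32 and 14.35 with LPS and 13.33, 13.48 and 13.35 in medium. Thus the 4 LPS-treated MK2/3-/- arrays lay above all other LPS arrays and above their own medium arrays, and the other 5 groups overlapped each other.

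In MK2/3-/- BMDM, LPS raised Il10ra by 1.68-fold (log2 0.75 ± 0.22 SE, adjusted p = 0.00737), and this was called in 22 of 22 fits without 1 array. The LPS difference was 0.01 in wt (adjusted p = 0.969), and -0.29 for MK2-/- (adjusted p = 0.272). After LPS, MK2/3-/- BMDM exceeded wt by 1.63-fold (0.70 ± 0.22, adjusted p = 0.0255) and MK2-/- by 1.70-fold (0.77 ± 0.20, adjusted p = 0.0168), and without both arrays of low Y-linked signal the latter was 0.79 (adjusted p = 0.0224). The interactions, which test whether the response itself differed, gave 0.74 against wt (adjusted p = 0.319) and 1.04 against MK2-/- BMDM (adjusted p = 0.261) and were not called. The difference from wt was lost when replicate 1 of wt LPS (0.49, adjusted p = 0.156), replicate 3 of MK2/3-/- LPS (0.65, adjusted p = 0.0544) or replicate 4 of MK2/3-/- LPS (0.63, adjusted p = 0.0544) was left out, and that from MK2-/- when replicate 1 (0.70, adjusted p = 0.0606) or replicate 2 of MK2-/- LPS (0.67, adjusted p = 0.0611) was.

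Il10rb (NM_008349), the shared chain, stayed between 11.94 and 13.25 on all arrays. After LPS it was at 12.46, 12.68 and 12.60 in wt and at 12.86, 13.15, 12.65 and 12.57 in MK2-/- BMDM, against 12.49, 13.14, 13.14 and 13.07 and 12.25, 12.99, 12.72 and 13.20 in medium, and in both genotypes the treatments overlapped. Its LPS and medium values in MK2/3-/- BMDM, 12.58, 12.68, 12.02 and 11.94 against 12.82, 13.25 and 12.70, did not overlap. This was the only comparison in which Il10rb was called, at -0.61 ± 0.25 SE on the log2 scale (adjusted p = 0.0483). The call was made in 8 of 22 fits without 1 array, where the change ranged from -0.74 to -0.45, and was lost without both arrays of low Y-linked signal (adjusted p = 0.0613). Between LPS-treated genotypes Il10rb was not called, with differences of 0.23 for MK2-/- minus wt (adjusted p = 0.573), -0.27 for MK2/3-/- minus wt (adjusted p = 0.452) and -0.50 for MK2/3-/- minus MK2-/- (adjusted p = 0.161). The Il10rb change was -0.38 in wt (adjusted p = 0.238) and 0.02 for MK2-/- (adjusted p = 0.966), and the change of Il10rb in MK2/3-/- BMDM was thus opposite in sign to that of Il10ra.

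Of the genes that pass on the IL-10 signal, none was called between genotypes under LPS. Of 7 such genes (Jak1, Tyk2, Stat3, Socs1, Socs3, Ptpn6 and Inpp5d), 4 were higher and 1 lower after LPS in wt, and 5 were higher and 1 lower in MK2-/- and in MK2/3-/- BMDM, beside 42%, 45.4% and 48.6% of all tested probes that were called. In wt, Socs3, a STAT3-induced inhibitor of cytokine signalling, rose by 6.69 (adjusted p = 1.57e-08), Stat3 by 2.76 (adjusted p = 2.13e-08) and Inpp5d, the lipid phosphatase SHIP1, fell by 4.72 (adjusted p = 8.01e-09). Under LPS none of the 7 was called in any of the 3 genotype comparisons by limma, while 1, 1 and 0 passed at an unadjusted p below 0.05, and their median differences were -0.19, -0.24 and -0.05. The largest of these was that of Inpp5d, -0.96 in MK2-/- and -0.94 in MK2/3-/- against wt (adjusted p = 0.0868 and 0.0671).

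Genes known to be raised by IL-10 in macrophages were lower in MK2/3-/- BMDM, as far as they were called. Of 12 listed genes 11 were tested, Cd163 being too dim, and under LPS 0 were higher and 5 lower in MK2/3-/- than in wt, 0 and 5 in MK2/3-/- than in MK2-/-, and 0 and 1 in MK2-/- than in wt. Of all tested probes, 14.8%, 5.98% and 7.4% were called lower in these comparisons. The medians of the 11 genes were -1.39, -1.09 and -0.22, beside -0.06, -0.08 and -0.05 for all tested probes. The 5 genes were the same in both comparisons of MK2/3-/- BMDM, and all had been raised by LPS in wt.

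Against wt under LPS, these were Il4ra, the IL-4 receptor α chain (log2 -2.93 ± 0.32 SE), Ddit4, an inhibitor of mTORC1 signalling (-2.55 ± 0.53), Nfil3, a repressor of Il12b transcription (-1.48 ± 0.36), Sbno2, a STAT3-induced corepressor (-1.48 ± 0.25), and Bcl3, an NF-kB cofactor (-1.39 ± 0.27). Il4ra was also the gene called in MK2-/- BMDM (-1.36, adjusted p = 0.0130). A second Il4ra probe gave -0.17 for MK2/3-/- (adjusted p = 0.845) and -0.51 for MK2-/- BMDM (adjusted p = 0.531), so the probes of this gene disagreed. Its mean signal after LPS was 13.29 ± 0.84 (SD, n = 3) in wt, 11.93 ± 0.49 (n = 4) in MK2-/- and 10.36 ± 0.34 (n = 4) in MK2/3-/- BMDM with the first probe. Ddit4 was at 13.31, 13.09 and 10.76 in the same order, Bcl3 at 15.65, 15.35 and 14.26, Nfil3 at 13.94, 13.82 and 12.46, and Sbno2 at 13.22, 12.86 and 11.74, so that for these 4 the MK2-/- mean lay closer to wt. In the interaction of MK2/3-/- against wt, 2 of the 11 were called, Il4ra (-2.38, adjusted p = 0.0231) and Sbno2 (-1.71, adjusted p = 0.0299).

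Other genes of the same list were not called. Socs3, a direct STAT3 target, differed by -0.61 between LPS-treated MK2/3-/- and wt BMDM (adjusted p = 0.445), Il1rn, the IL-1 receptor antagonist, by 0.03 (adjusted p = 0.980) and Etv3 by 0.16 (adjusted p = 0.808). The Socs3 signals after LPS did not overlap, at 17.54 to 17.63 in wt and 16.95 to 17.01 in MK2/3-/- BMDM. The fit shares 1 spread over all groups, and Socs3 in wt medium had an SD of 1.63. The missing call of Socs3 therefore does not show equal levels. Hmox1, the haem-degrading enzyme, was at -1.5 but did not pass (adjusted p = 0.0791). Several genes of this list are also direct LPS targets, and the list was chosen with earlier results of these data known.

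**Figure D4:**
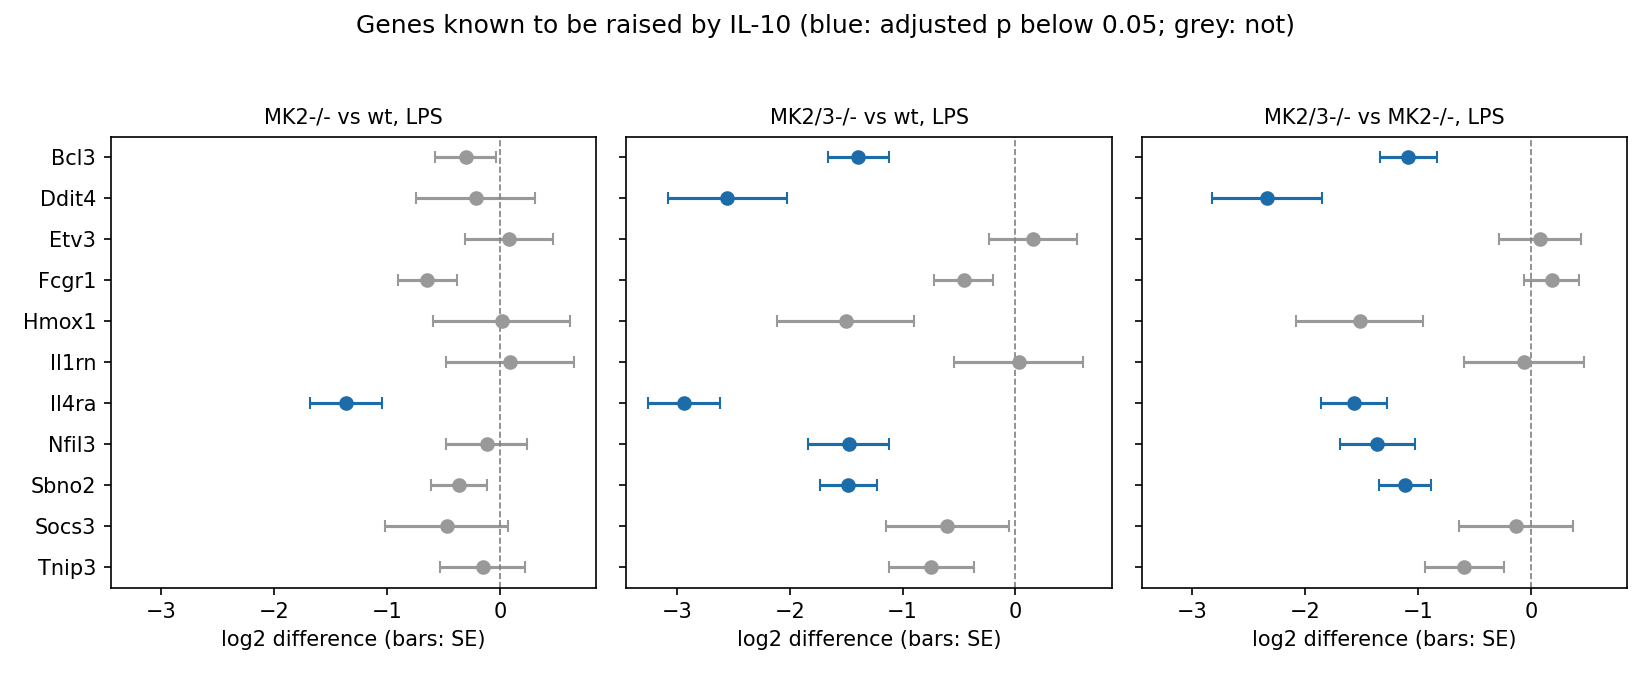
Log2 difference (x axis, bars SE) of the 11 tested genes known to be raised by IL-10 in 3 comparisons of LPS-treated genotypes, blue where the adjusted p was below 0.05. In both comparisons of MK2/3-/- BMDM, 5 of 11 are lower and none is higher, and in MK2-/- against wt 1 is lower.

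Genes known to be held down by IL-10 were called in both directions. Of 9 tested genes of 10 listed, 1 was higher and 1 lower in LPS-treated MK2/3-/- than in wt BMDM, with a median of 0.32, beside 23.7% of all probes that were called. Il12a, the p35 subunit of IL-12, was higher by 3.17 (adjusted p = 0.000572), and Csf3, which encodes the granulocyte growth factor G-CSF, lower by 2.95, a difference of -2.95 (adjusted p = 0.00790). Tnf (0.53, adjusted p = 0.438), Il6 (0.32, adjusted p = 0.840) and Nos2 (0.00, adjusted p = 1.00), all strongly raised by LPS in wt, were not called. The Il6 signals after LPS did not overlap, at 17.52 to 17.81 in wt and 17.92 to 18.08 in MK2/3-/- BMDM. Il6 in wt medium, which enters the shared spread of the fit, had an SD of 2.93. In MK2-/- BMDM, Il23a, the p19 subunit of IL-23, was higher than in wt by 3.10 (adjusted p = 0.0272), with 2 of 3 wt LPS arrays well above background, and this was lost without both arrays of low Y-linked signal, when 0 of the 9 genes were higher.

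Of 20 factors known to act on Il10 transcription or mRNA, 1 was higher and 6 were lower in LPS-treated MK2/3-/- than in wt BMDM, beside 8.85% and 14.8% of all tested probes. The lower ones were Mapk14, the p38α kinase (-2.19 ± 0.34 SE), the transcription factor gene Cebpb (-1.10 ± 0.26), the kinase gene Map3k8, which encodes TPL2 (-0.71 ± 0.24), and 3 genes of the tristetraprolin family of mRNA decay factors, Zfp36 (-1.04 ± 0.35), Zfp36l1 (-1.04 ± 0.29) and Zfp36l2 (-0.90 ± 0.24). Crem, which encodes a cAMP-responsive regulator, was higher (1.29 ± 0.23). A second Mapk14 probe was lower too (-1.17, adjusted p = 0.00710) and was also called in MK2-/- against wt (-0.95, adjusted p = 0.0412), and of the other Crem probes 1 gave 1.03 (adjusted p = 0.00801) and 1 gave -0.69 (adjusted p = 0.179). Probes of Elavl1, which encodes the RNA-binding protein HuR, disagreed too, with -0.01 for the probe counted (adjusted p = 0.980) and -1.09 for a second probe (adjusted p = 0.0139).

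In the interaction of MK2/3-/- against wt, Cebpb (-1.55, adjusted p = 0.0468) and Mapk14 (-2.09, adjusted p = 0.0429) were called among the 20. Between MK2-/- and wt under LPS, 1 factor was higher, Sp1 (0.91, adjusted p = 0.00735), and 2 were lower, Ifnb1, which encodes the interferon-β that promotes Il10 expression (-2.84, adjusted p = 0.0214), and Zfp36l1 (-0.95, adjusted p = 0.0422), a share of 3 in 20 beside 11.6% of all probes. Without both arrays of low Y-linked signal, and likewise without replicate 4 of wt medium, 1 factor was lower. Ifnb1 in MK2/3-/- BMDM was at -1.78 from wt (adjusted p = 0.0896) and 1.06 from MK2-/- (adjusted p = 0.339). Between MK2/3-/- and MK2-/- BMDM, 2 were higher (Crem and Rel, an NF-kB subunit, by 2.00, adjusted p = 0.00432) and 2 lower (Cebpb and Mapk14), beside 13.4% of all probes called.

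The remaining genes of the IL-10 cytokine and receptor family, with the related interferon receptors, were compared as well. LPS raised 3 and lowered 3 of the 11 tested in wt, beside 42% of all probes called, among them Il20rb, a chain of the IL-20 receptors (1.62), Ifnl3, an interferon-λ gene (0.87), and Ifngr1, an interferon-γ receptor chain (-1.91), and Il22 was not called (0.17, adjusted p = 0.727). Of the 11, 1 was higher in LPS-treated MK2-/- than in wt BMDM, Il22ra2, the soluble IL-22 binding protein (1.78, adjusted p = 0.0219, with 2 of 3 wt LPS arrays well above background), beside 11.6% of all probes called. Between MK2/3-/- and wt none was called by limma, with 2 at an unadjusted p below 0.05 and 23.7% of all probes called. In MK2/3-/- against MK2-/- BMDM, Ifnar1, an interferon-α/β receptor chain (-0.82, adjusted p = 0.0202), and Il22ra1, the partner chain of IL-10Rβ for IL-22 (-1.12, adjusted p = 0.0408), were lower, 2 of 11 beside 13.4% of all probes. A second Ifnl3 probe was lower in this comparison as well (-1.88, adjusted p = 0.00478), whereas the probe counted was at 0.12 (adjusted p = 0.773). Of 8 STAT3-using or anti-inflammatory cytokines, Osm, which encodes oncostatin M, exceeded wt by 0.72 in MK2-/- (adjusted p = 0.0398) and by 0.88 in MK2/3-/- BMDM (adjusted p = 0.00723), and Il27, which encodes a subunit of IL-27, was higher in MK2/3-/- than in MK2-/- BMDM (1.40, adjusted p = 0.00527).

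Il10, Il19, Il20 and Il24 lie next to Mapkapk2, so the genes around it were compared as well. In the RefSeq order the neighbours are Fcmr, Il24, Il20, Il19, Il10, Mapkapk2, Dyrk3 and Eif2d. Of 15 tested genes among the 10 on each side of Mapkapk2 that are not members, 1 was higher and 2 were lower under LPS in MK2-/- than in wt, 2 were higher and 3 lower in MK2/3-/- than in wt, and 2 were higher and 1 lower in MK2/3-/- than in MK2-/-. These 3, 5 and 3 of 15 genes stand beside 11.6%, 23.7% and 13.4% of all probes called. Their medians in these comparisons were -0.07, -0.02 and 0.13.

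The largest difference in this stretch was that of Ctse, the aspartic protease cathepsin E, 8 genes from Mapkapk2. Its group means were 5.19 in wt LPS against 10.51 in MK2-/- and 10.20 in MK2/3-/- LPS, and 7.30, 11.73 and 11.79 in medium. The wt LPS value had an SD of 3.64, with 1 of 3 arrays well above background. Ctse was called as higher under LPS in MK2-/- (5.32 ± 1.15 SE, adjusted p = 0.00856) and MK2/3-/- BMDM (5.01 ± 1.15, adjusted p = 0.00433), and in medium in MK2-/- BMDM (4.43, adjusted p = 0.0186), while MK2/3-/- in medium gave 4.48, just short of a call (adjusted p = 0.05003).

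Nearer to Mapkapk2, Dyrk3, the kinase gene on the side away from Il10, was reduced under LPS in MK2-/- BMDM (-1.66, adjusted p = 0.0487). Only 2 of the 4 MK2-/- LPS arrays were well above background for Dyrk3. Eif2d, a translation factor gene 2 places away, was reduced in MK2/3-/- BMDM (-1.56, adjusted p = 0.00218). In the interactions none of the 15 was called by limma, with 0, 2 and 1 at an unadjusted p below 0.05. With 75th percentile scaling Dyrk3 was no longer called in MK2-/- against wt (-1.13, adjusted p = 0.117). Fam72a lost its call in MK2/3-/- against wt, and Slc26a9 in MK2/3-/- against wt and against MK2-/-. This left 2, 3 and 2 of the 3, 5 and 3 calls.

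**Figure D5:**
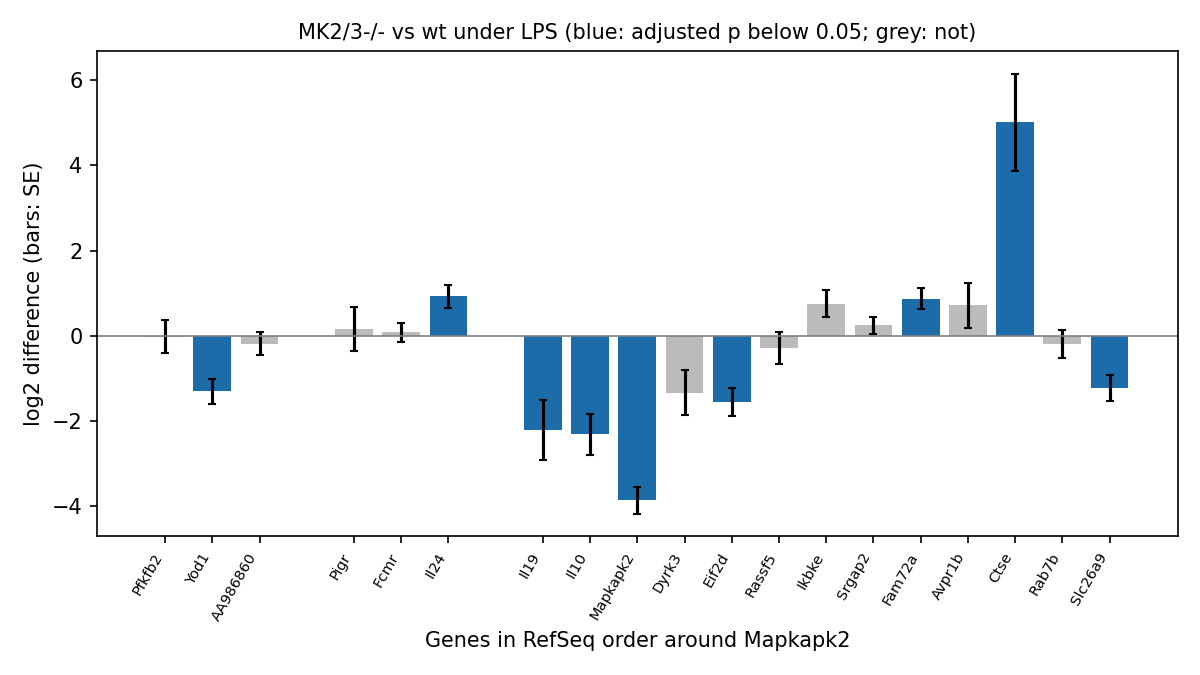
Log2 difference between LPS-treated MK2/3-/- and wt BMDM (y axis, bars SE) for the tested genes around Mapkapk2, in their RefSeq order (x axis). Mapkapk2 is lowest at -3.87, Il10 and Il19 follow at -2.32 and -2.22, and Ctse is highest at 5.01.

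Over the 22 arrays, the genes most like Il10 among 17519 compared were Snx10 (Pearson r 0.975), Pnpt1 (0.973), Map3k8 (0.972), Gramd1a (0.971) and Tcea1 (0.971), with Il19 at rank 9 (0.969). Those most like Il19 were Lcn2 (0.979), which encodes the siderophore-binding protein lipocalin-2, Slamf1 (0.971), Il1f6 (0.971), Saa1 and Saa3 (both 0.969), with Il10 at rank 6. These correlations are descriptions over arrays that all share the contrast of LPS and medium. The correlation with Il10 was 0.392 for Il24, 0.176 for Il10ra and -0.397 for Il10rb. Both sets of 5 genes were picked by r over the same arrays that are compared here. A shared direction with Il10 or Il19 is therefore partly built in. Of all tested probes, 14.8% were called lower in MK2/3-/- than in wt BMDM under LPS. Of the 5 genes most like Il10, 3 were lower in that comparison, Gramd1a (-0.83, adjusted p = 0.00711), Map3k8 (-0.71, adjusted p = 0.0384) and Pnpt1 (-0.51, adjusted p = 0.0273), while Snx10 (-0.30, adjusted p = 0.256) and Tcea1 (-0.14, adjusted p = 0.570) were not called. Of the 5 most like Il19, Lcn2 was lower (-2.04, adjusted p = 0.0173), and Il1f6 (-2.27), Saa1 (-1.74), Saa3 (-1.73) and Slamf1 (-1.27) were not called (adjusted p between 0.0953 and 0.367).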

How the data were processed

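RNA of BMDM was labelled with Cy3 and hybridised to 1-colour Agilent mouse arrays of 62976 spots, of which 3671 were controls. The deposited scanner output, by Agilent Feature Extraction 11.0.1.1 per the file headers, lists for every spot the processed intensity, background-corrected but without normalisation between arrays. The authors also deposited log2 values, quantile normalised and centred per probe; they followed the values recomputed here with r between 0.992 and 0.999 and were used as an alternative. The array design is annotated on mm9; gene names, gene order and promoters come from RefSeq tables of GRCm38.p6. No sample column was left unmapped (0).

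Here, control spots were left out and spots with an outlier mark (uneven, or far from its replicates) were treated as missing (115 to 261 on 21 arrays, 2927 on replicate 3 of MK2-/- LPS; 6 of 352 member spots). No spot was saturated (0). The log2 processed intensity was quantile normalised over 22 arrays, as in the study's methods, then averaged over a probe's spots. The test covered 28105 probes (18375 named genes), those with an NCBI accession and a signal well above background on 3 or more arrays. For a gene with several probes outside the members, the probe of the highest mean was used. Means of the 6 groups were fitted with limma 3.58.1 in R 4.3.3 with eBayes, and two-sided p-values were Benjamini-Hochberg adjusted over all 28105 probes, with calls at an adjusted p below 0.05. Errors are SE of the fit unless named SD. The number of arrays limits the precision. The fit was tested on simulated data.

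Named were all member probes, the listed genes that were called under LPS or in an interaction with examples of each list, Mapkapk2 with the 10 genes on each side, and the 5 genes most correlated with Il10 and with Il19. The members, lists and tests were chosen with earlier results of these data known. Alternatives were 75th percentile scaling, normexp background correction (offset 50), the deposited log2 values, no filter, a filter on all 22 arrays, 1 probe per gene, marked spots kept, only the groups compared, array weights, age as covariate, replicate blocks, the methods' t-test, and leaving out each array. Added after seeing the data were list counts without replicate 4 of wt medium or replicate 3 of MK2-/- LPS. Also added were member results and list counts without both MK2-/- arrays of low Y-linked signal. Other time points of the study were not used here, and 1 gene of the signalling list is not reported here.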

Additional observations from a re-analysis of the deposited data

Results flagged for a closer look

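Among 24 groups of 4 arrays, each a member probe in 1 group, 2 held an array that stood far from the other 3, a gap that chance gives in about 1 in 20 groups. For the second Il19 probe in MK2/3-/- LPS BMDM, replicate 1 was lowest at 10.14 and the next array was at 12.40, a gap of 0.853 of the whole range of the group. For Il10rb in wt medium, replicate 1 was lowest at 12.49 and the next array was at 13.07, a gap of 0.894 of the range. Both gaps exceed the critical value at the 95% level of Dixon's test for 4 arrays. The same MK2/3-/- array was also lowest for Il10, at 10.64, and for the first Il19 probe, at 9.62.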

How the results depend on the processing

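Of 508 values of member probes under other settings, 466 kept their direction and their side of the threshold, 35 lost and 5 gained a call, and 2 changed sign. They cover all comparisons of Il10 and of the first Il19 probe, called or not, and only the called ones of the other probes. Many kept sides are therefore missing calls that stayed missing, or strong LPS calls. Il10 in MK2-/- against wt under LPS lost its call without the filter (-1.55, adjusted p = 0.0502), with marked spots kept (-1.48), with only the groups compared (-1.55), with age as covariate (-1.22), with the methods' t-test after adjustment (-1.55) and without both arrays of low Y-linked signal (-1.62, a setting added after seeing the data). Il10 in MK2/3-/- against wt lost it with the adjusted t-test (-2.32, adjusted p = 0.0931), and Il19 probe 1 with only the groups compared (-2.22), array weights (-1.86) and the adjusted t-test (-2.22). Il19 in MK2/3-/- against MK2-/- gained a call with normexp (-1.78) and with the t-test before adjustment (-1.84). In medium, calls were gained by Il10 in MK2-/- (-1.03) and Il19 in MK2/3-/- against MK2-/- (-0.93) with the t-test before adjustment, and by Il19 in MK2/3-/- against wt with array weights (-2.27). The Il19 interaction turned to -0.042 in MK2-/- against wt with 75th percentile scaling and to 0.41 in MK2/3-/- against wt with array weights. The cause was not tested.

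Without 1 array, Il10 ranged from -1.94 to -1.23 in MK2-/- against wt under LPS, from -2.61 to -1.94 in MK2/3-/- against wt, and from -0.080 to 0.44 in MK2/3-/- against MK2-/- in medium. Il19 probe 1 ranged under LPS from -0.99 to 0.044 in MK2-/- against wt, from -2.82 to -1.70 in MK2/3-/- against wt and from -2.17 to -1.32 in MK2/3-/- against MK2-/-, and its interactions from -0.14 to 1.07 for MK2-/- and from -1.05 to 0.22 for MK2/3-/- against wt. Il10rb in MK2/3-/- BMDM lost its call under 10 of 16 settings, Il10ra in MK2/3-/- against wt under 4 of 16 (0.53 with 75th percentile scaling, adjusted p = 0.101), Il10ra against MK2-/- and Il24 under 2 of 16 each (highest adjusted p 0.108 and 0.154), and the second Il19 probe in medium under 7 of 14.

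The 75th percentile scaling moved the median of all probes for LPS against medium from -0.06, -0.04 and -0.02 to 0.27, 0.26 and 0.26, and in MK2/3-/- against wt under LPS from -0.06 to 0.11. The share of calls that were higher went from 43.6% to 59.6% for LPS in wt, from 38.8% to 52.6% in MK2-/-, from 41.4% to 53.3% in MK2/3-/-, and under LPS from 36% to 62.6%, 37.3% to 55.8% and 55.3% to 67.4% in MK2-/- and MK2/3-/- against wt and MK2/3-/- against MK2-/-. In medium it went from 61% to 83.9%, 66.2% to 90.3% and 67% to 88%, in the same order, and in the interactions of MK2/3-/- from 20.4% to 17.6% against wt and from 52.6% to 30% against MK2-/-. Over the same 28105 probes, calls of genotypes under LPS (3252, 6659 and 3762) fell to 788, 279 and 849 with the adjusted t-test, and those in medium (2222, 541 and 766) to 636, 240 and 407. Array weights raised the interactions (0, 275 and 19) to 106, 697 and 62. Without 1 array, calls fell as low as 1625 under LPS for MK2-/- against wt (without replicate 3 of wt LPS), 21 in medium for MK2/3-/- against wt (without replicate 1 of MK2/3-/- medium), and 28 and 2 in the interactions of MK2/3-/- (without replicate 2 there). With 75th percentile scaling no listed gene or neighbour called under LPS changed its sign (0). Of the family genes 2 were higher and 2 lower in MK2/3-/- against wt, and 1 was lower against MK2-/-. In MK2-/- against wt 2 genes held down by IL-10 were higher and 2 raised by it lower (7 against 5 in MK2/3-/- against wt). There were 3 factors lower in MK2-/- against wt and in MK2/3-/- against MK2-/-. Of the STAT3-using cytokines 0 were higher in MK2-/- against wt, and 1 signalling gene was lower in each knockout against wt. In alternatives added after seeing the data, without replicate 3 of MK2-/- LPS 1 signalling gene was higher in MK2-/- against wt, and 0 genes held down by IL-10 and 4 factors were lower in MK2/3-/- against MK2-/-. Without both arrays of low Y-linked signal, 0 genes held down by IL-10 were higher in MK2-/- against wt, and again 0 of these and 4 factors lower in MK2/3-/- against MK2-/-, and 1 factor was lower in MK2-/- against wt, as without replicate 4 of wt medium.

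Of same-lettered pairs within genotypes, 7 of 10 correlated above 0.1, against 5 of 30 unlike pairs. By replicate number it was 7 of 10 (lowest -0.07), and 23 of 51 over all groups. The replicate block, with a consensus correlation of 0.0538 over all groups 0.118 within genotypes and 0.143 by letter, changed no call of a member (Il10 in MK2-/- against wt under LPS -1.60 and -1.58 by number). The t-test gives no interaction, and the second Il19 probe has no value with 1 probe per gene or with the filter on all 22 arrays.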
